A study of Mus musculus with 10 samples.

Results

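Genes of the oxysterol and liver X receptor (LXR) axis were followed in mouse bone marrow cultures given adiponectin or vehicle. The axis was taken as 9 genes listed by name: the receptors Nr1h3 and Nr1h2, the LXR target genes Abca1, Abcg1, Apoe and Mylip, and the oxysterol genes Ch25h, Cyp7b1 and Gpr183. A gene counted as measured where a probe set carried its symbol and no other, which held for 8 of the 9 members and for 19938 genes in all. Nr1h2, which encodes LXR-beta, is not analysed here. Each of the 8 measured members had 1 probe set.

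Marrow from the long bones of male Swiss mice aged 4 to 6 weeks was grown, in both arms, in αMEM medium containing serum and the vitamin D hormone calcitriol. The adiponectin arm received recombinant mouse adiponectin, a hormone of fat cells, at 5 µg/ml, and the control arm received vehicle. RNA of 1 adiponectin culture and 1 control culture was hybridised to arrays at each of 4, 10, 24, 72 and 120 h, which gives 5 pairs. The series title names lipopolysaccharide, a bacterial product that activates macrophages, as a contaminant, and the labels do not say in which cultures or at what level. Whether each culture had its own donor animals is not in the labels either. With 1 pair at each time, the p-values for adiponectin rest in part on how the difference between the arms varied from time to time. That variation also holds any real change of the difference with time, and part of it may be technical. No cultures were replicated within a time. Median log2 values of the arrays ran from 8.27 to 8.48 over all named genes, and precision is limited by having 10 arrays. A summed log2 level is here the log2 of the summed unlogged values of a list, in which the brightest genes weigh most. For 9 neutrophil markers it was 13.55 to 16.14 in adiponectin cultures and 13.56 to 16.41 in control cultures. Without another tissue to set beside them, these values describe the cultures and do not test the tissue label.

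Oxysterols are oxidised forms of cholesterol. LXR-alpha and LXR-beta are nuclear receptors that bind them, pair with retinoid X receptors (RXR) and switch on genes that carry cholesterol out of macrophages or limit its uptake. Ch25h and Cyp7b1 are hydroxylases that act in turn on cholesterol to make the ligand of Gpr183, a receptor that guides the migration of B cells, dendritic cells and, in mice, osteoclast precursors. In macrophages, Ch25h is known as a gene induced by lipopolysaccharide and interferon.

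The sequences printed are those just before the starts of the 4 members that differed between the arms. They are the 250 bases before the annotated start in RefSeq (build GRCm38.p6), read 5′ to 3′ on the gene's strand. Capitals mark motif matches. Abca1 lies at chr4:53159896-53160145 (minus strand), Ch25h at chr19:34475149-34475398 (minus strand), Gpr183 at chr14:121965194-121965443 (minus strand) and Nr1h3, with the more upstream of its 2 listed starts, at chr2:91195117-91195366 (minus strand).
Nr1h3: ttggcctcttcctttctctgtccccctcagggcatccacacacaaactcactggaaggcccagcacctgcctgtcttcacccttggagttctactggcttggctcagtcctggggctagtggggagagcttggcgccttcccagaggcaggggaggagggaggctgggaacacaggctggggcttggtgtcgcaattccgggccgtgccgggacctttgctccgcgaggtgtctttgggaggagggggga
Abca1: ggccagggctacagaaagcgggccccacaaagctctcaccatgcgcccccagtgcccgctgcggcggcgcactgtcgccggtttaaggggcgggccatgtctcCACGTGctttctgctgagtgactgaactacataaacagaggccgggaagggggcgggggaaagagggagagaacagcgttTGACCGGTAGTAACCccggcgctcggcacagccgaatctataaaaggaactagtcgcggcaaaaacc
Ch25h: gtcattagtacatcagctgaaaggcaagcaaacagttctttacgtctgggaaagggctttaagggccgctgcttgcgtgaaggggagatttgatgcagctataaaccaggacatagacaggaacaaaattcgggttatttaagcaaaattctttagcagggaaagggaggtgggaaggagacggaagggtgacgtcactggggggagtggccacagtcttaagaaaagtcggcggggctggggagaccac
Gpr183: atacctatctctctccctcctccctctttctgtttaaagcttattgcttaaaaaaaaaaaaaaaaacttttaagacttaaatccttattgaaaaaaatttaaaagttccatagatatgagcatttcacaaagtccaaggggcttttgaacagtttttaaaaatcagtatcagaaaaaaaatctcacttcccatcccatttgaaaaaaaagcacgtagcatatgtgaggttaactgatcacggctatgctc
Both strands of the promoters of 7 of the 9 members were searched for 4 motifs, and only that of Abca1 held a match. Its direct repeat of the kind that LXR and RXR bind (DR4, letters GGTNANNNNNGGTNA) read on the opposite strand as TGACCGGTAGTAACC, from base 67 to base 53 before the start. These letters occurred in 204 of 32851 RefSeq promoters of the same length (0.621%). The Abca1 window also held an E-box, CACGTG, from base 147 to base 142 before the start, which 6.02% of promoters held. The letters of an interferon-stimulated response element (GAAANNGAAA, 2.98% of promoters) and of an NF-kB site (GGGNNTTTCC, 1.41%) were in none of the members' windows. A match is a run of letters and was not tested as a binding site, and the array values bear on no site directly.

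Over all times, Nr1h3, Abca1 and Ch25h were higher in adiponectin cultures, Gpr183 was lower, and Abcg1, Apoe, Mylip and Cyp7b1 did not pass the test. The test was limma's moderated test with time as a block of 5 levels and Benjamini-Hochberg adjustment over 19938 genes, at an adjusted p under 0.05. By this test 3 of 8 members were higher, against 2.05% of all genes, and 1 of 8 was lower, against 0.371% of all genes. The median difference was 0.08 over the 8 members and 0.01 over all genes (log2, adiponectin minus control). In 5 of 5 pairs adiponectin was higher for 3 members (6.32% of all genes) and lower for another 3 (4.4% of all genes). In bulk cultures, fewer cells of a type and less RNA per cell cannot be told apart.

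**Figure D1:**
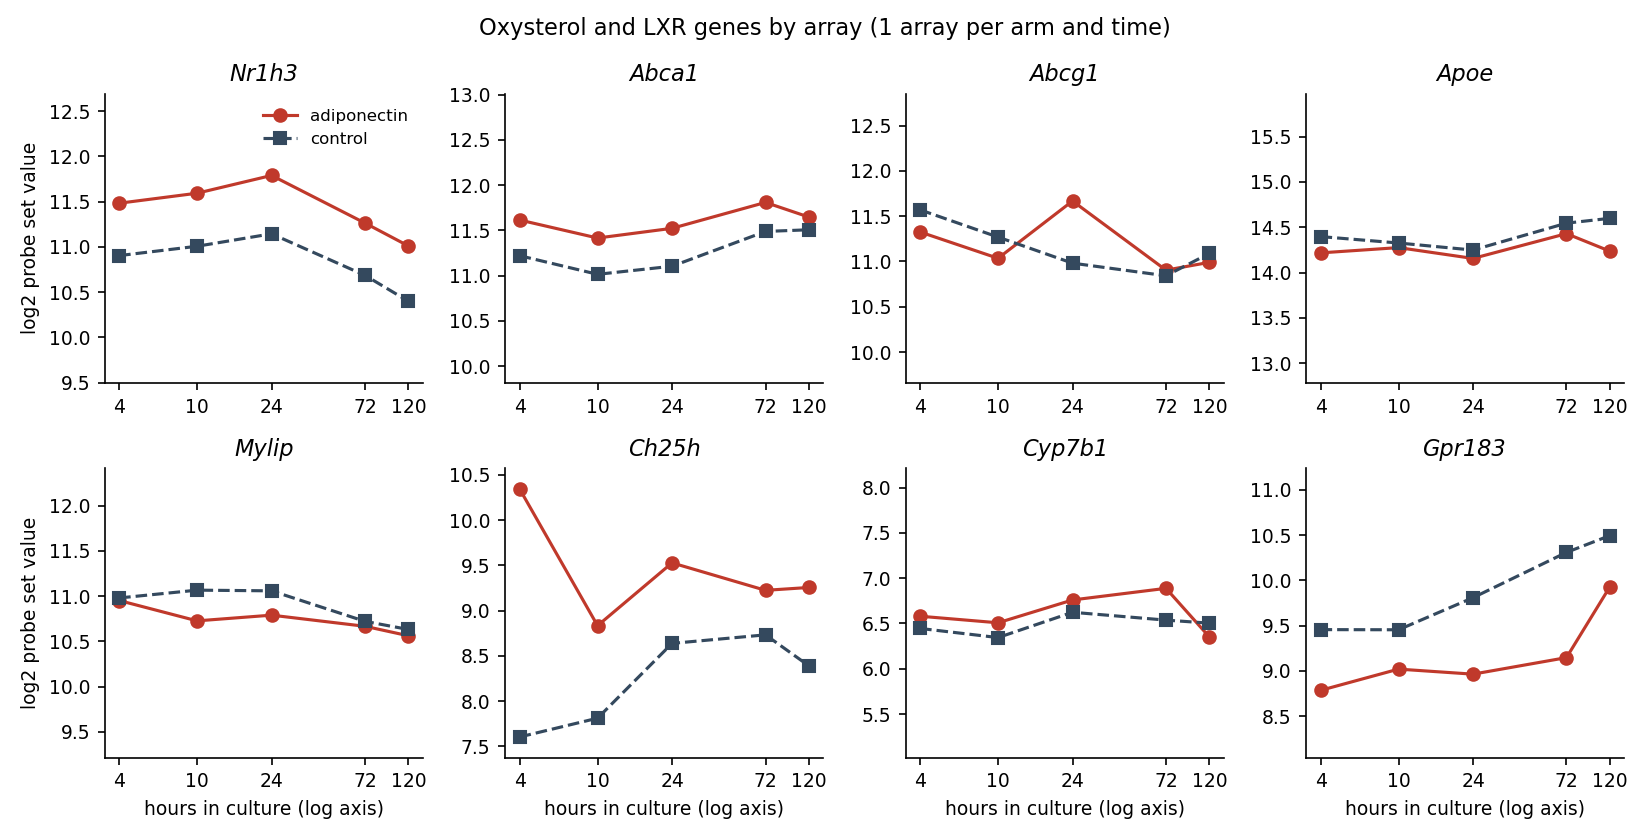
Level of each member on every array: log2 probe set value against hours in culture on a log axis, with adiponectin arrays as red circles and control arrays as dark squares (1 array per arm and time). Nr1h3 ran in parallel in both arms, Ch25h was farthest apart at 4 h, and Gpr183 was lower with adiponectin at every time.

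Nr1h3, which encodes LXR-alpha, the LXR form prominent in macrophages, was 1.52-fold higher in adiponectin cultures by almost the same amount at every time. Its log2 level was 11.48, 11.59, 11.79, 11.26 and 11.01 in adiponectin cultures at 4, 10, 24, 72 and 120 h, against 10.90, 11.01, 11.14, 10.68 and 10.40 in control cultures. Adiponectin was higher in each pair, while the ranges of the arms overlapped because both peaked at 24 h and were lowest at 120 h. The differences were 0.58, 0.59, 0.64, 0.58 and 0.61, with a mean of 0.60 ± 0.03 (log2, SD, n = 5 pairs; 95% interval 0.45 to 0.75; limma adjusted p = 0.00052), and the call was kept with any 1 pair left out. Among the 408 genes called higher with adiponectin, 1 had a smaller SD over pairs than Nr1h3, and the median SD of those genes was 0.25. Over all genes, 0.201% had a smaller SD. Of the members, only Nr1h3 was ranked by its SD in this way. Of 11 measured macrophage markers, 2 rose, Marco by 2.04 ± 0.30 and Siglec1 by 0.87 ± 0.37, and none fell (log2; limma adjusted p = 3.71e-06 and 0.00223). Of the other 9, 4 had a positive and 5 a negative mean difference, the widest being Mrc1 at -0.64 ± 0.56 (limma adjusted p = 0.0903; lower in 5 of 5 pairs) and Adgre1 at 0.34 ± 0.25 (0.129; higher in 5 of 5 pairs). The summed level of those markers was 15.94 to 16.39 in adiponectin cultures and 15.91 to 16.30 in control cultures on the log2 scale. Their part in the Nr1h3 difference was not tested.

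Abca1, the transporter that passes cholesterol to apolipoprotein A-I, was 1.26-fold higher with adiponectin. Its log2 level was 11.61, 11.42, 11.52, 11.81 and 11.65 in adiponectin cultures, against 11.22, 11.01, 11.10, 11.49 and 11.51 in control cultures, at 4, 10, 24, 72 and 120 h. All 5 adiponectin arrays were above their own control, with the smallest gap at 120 h, and the ranges of the arms overlapped. The differences were 0.39, 0.40, 0.42, 0.32 and 0.14, with a mean of 0.33 ± 0.12 (SD, n = 5 pairs; 95% interval 0.17 to 0.50; limma adjusted p = 0.0415). The call was lost when the 4, 10, 24 or 72 h pair was left out (limma adjusted p = 0.112, 0.134, 0.164 and 0.150). It was also lost after repeated quantile normalization (0.0661), after median centring of the arrays (0.0502) and in an ordinary test without moderation (0.195).

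Abcg1, a second cholesterol exporter and LXR target, gave differences of both signs. Levels on the log2 scale were 11.33, 11.04, 11.67, 10.90 and 10.99 in adiponectin cultures, against 11.57, 11.27, 10.98, 10.84 and 11.09 in control cultures. The 24 h adiponectin array was the highest of its arm, at the time when the control was the second lowest of its own. Differences of -0.24, -0.23, 0.69, 0.06 and -0.10 averaged 0.03 ± 0.39 (SD, n = 5 pairs; 95% interval -0.24 to 0.31; limma adjusted p = 0.971), and -0.13 without the 24 h pair.

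Apoe, the apolipoprotein that macrophages secrete with cholesterol, was lower with adiponectin in 5 of 5 pairs without passing the test. Log2 levels were 14.22, 14.28, 14.16, 14.43 and 14.24 in adiponectin cultures, against 14.40, 14.33, 14.25, 14.54 and 14.60 in control cultures. The gap was widest at 120 h and under 0.1 at 10 and 24 h. The mean difference was -0.16 ± 0.12 (SD, n = 5 pairs; 95% interval -0.33 to 0.01; limma adjusted p = 0.521).

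Mylip, also called Idol, is a ubiquitin ligase that marks lipoprotein receptors for breakdown, and it too was lower in 5 of 5 pairs without passing. The log2 level was 10.95, 10.73, 10.79, 10.67 and 10.56 in adiponectin cultures, against 10.98, 11.07, 11.06, 10.72 and 10.63 in control cultures. The differences at 10 and 24 h, -0.34 and -0.27, were several times those at the other times. The mean was -0.15 ± 0.14 (SD, n = 5 pairs; 95% interval -0.32 to 0.02; limma adjusted p = 0.584). Thus the 4 LXR targets among the members held 1 call, with differences of both signs, and their median was -0.06.

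Ch25h had the largest difference of the members and was the only one whose arms did not overlap. Its log2 level was 10.34, 8.83, 9.53, 9.22 and 9.25 in adiponectin cultures, against 7.60, 7.81, 8.64, 8.73 and 8.39 in control cultures, at 4, 10, 24, 72 and 120 h. The highest adiponectin value and the lowest control value both fell at 4 h, and the lowest adiponectin value, at 10 h, was still above the highest control value, at 72 h. No overlap of this kind, with adiponectin above, held for 1.53% of all genes, and with adiponectin below for 0.296%. The difference was 2.74 at 4 h (6.68-fold), then 1.02, 0.89, 0.49 and 0.87. The mean was 1.20 ± 0.88, or 2.30-fold (SD, n = 5 pairs; 95% interval 0.65 to 1.76; limma adjusted p = 0.0293). The call was lost without the 10, 24 or 120 h pair (limma adjusted p = 0.0802, 0.0979 and 0.0595), after repeated quantile normalization (0.0572) and with an intensity trend and robust prior (0.239). An ordinary test without moderation lost it too (adjusted p = 0.509). Without the 4 h pair the mean was 0.82 and the call was kept.

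Cyp7b1, the enzyme next after Ch25h in this route, was dim and did not pass. The log2 level was 6.58, 6.51, 6.76, 6.89 and 6.35 in adiponectin cultures, against 6.45, 6.34, 6.62, 6.54 and 6.50 in control cultures. Every one of these values was below the median of its array, so a small difference could have gone unseen. Adiponectin was higher in 4 of 5 pairs and lower at 120 h. The mean difference was 0.13 ± 0.18 (SD, n = 5 pairs; 95% interval -0.06 to 0.31; limma adjusted p = 0.736).

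Gpr183, the receptor at the end of the route, was 1.66-fold lower with adiponectin. Its log2 level was 8.78, 9.02, 8.96, 9.15 and 9.93 in adiponectin cultures, against 9.46, 9.45, 9.81, 10.31 and 10.49 in control cultures, at 4, 10, 24, 72 and 120 h. Adiponectin was lower in each pair, and only the 120 h adiponectin array reached into the range of the control arm. The differences were -0.67, -0.43, -0.84, -1.16 and -0.56, with a mean of -0.74 ± 0.28 (SD, n = 5 pairs; 95% interval -0.96 to -0.51; limma adjusted p = 0.00223). Gpr183 kept its call with any 1 pair left out, and lost it in an ordinary test without moderation (adjusted p = 0.230). Of the called members, only Nr1h3 kept its call in that ordinary test (adjusted p = 0.0223).

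Markers of the cells known to carry Gpr183 were set beside it. Of 8 dendritic cell markers, 1 fell, Cd209a by 2.36 on the log2 scale (SD 0.54, n = 5 pairs; limma adjusted p = 1.36e-05), and none rose. Over all 8, 3 had a positive and 5 a negative mean difference. Ccr7 was at 0.61 ± 0.61 and higher in 5 of 5 pairs without passing (limma adjusted p = 0.151). At single times, 5 of the 8 were positive at 4 h, 5 at 10 h, 3 at 24 h, 1 at 72 h and 1 at 120 h. The summed log2 level of these 8 was 12.33 to 13.55 in adiponectin cultures and 13.30 to 13.81 in control cultures. Of 9 osteoclast markers, 1 fell, the proton pump subunit Atp6v0d2, with a difference of -0.91 ± 0.43 (limma adjusted p = 0.00346), and all 9 had a negative mean difference. At single times, however, 5 of the 9 were positive at 4 h, 6 at 10 h, 2 at 24 h and 0 at 72 and 120 h. Their median differences were 0.15 at 4 h, 0.07 at 10 h, -0.37 at 24 h, -1.13 at 72 h and -0.44 at 120 h. The summed log2 level of these 9 was 14.27 to 15.70 in adiponectin cultures and 14.26 to 16.08 in control cultures. None of the 6 measured B cell markers was called, with a summed log2 level of 12.14 to 13.93 in adiponectin cultures and 11.88 to 13.97 in control cultures. The part of these cells in the Gpr183 difference was not tested.

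**Figure D2:**
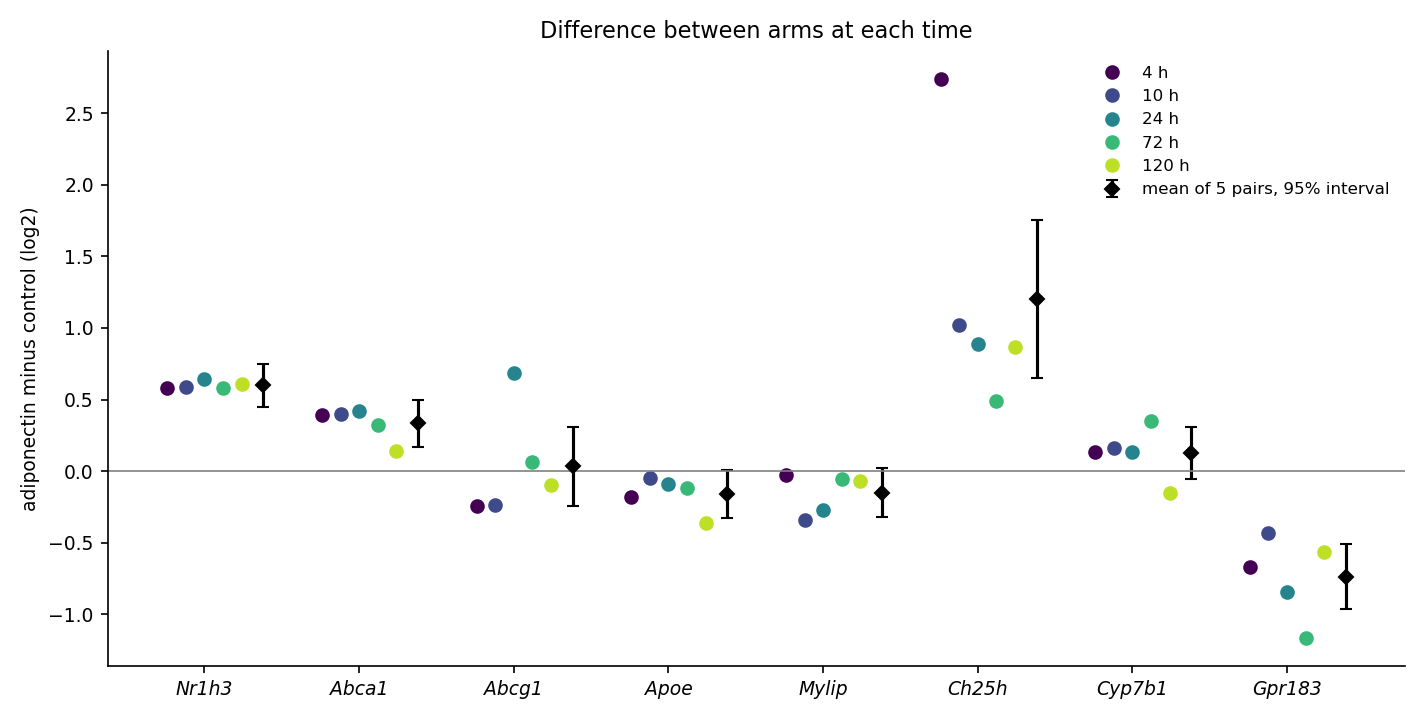
Adiponectin minus control for each member (log2): coloured points are the 5 single times, from 4 h (darkest) to 120 h (lightest), and black diamonds with bars are the mean and its 95% interval from limma. The intervals of Nr1h3, Abca1 and Ch25h lie above 0 and that of Gpr183 below it, and the 4 h point of Ch25h, at 2.74, stands apart from its other times.

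At single times each arm had 1 array, so the differences there carry no test. A difference of at least 2-fold in either direction was held by 1 member at 4 h (Ch25h; 0.848% of all genes) and by 1 at 10 h (Ch25h; 1.02% of all genes). At 24 h it was held by 0 members (1.08% of all genes), at 72 h by 1 (Gpr183; 0.702% of all genes) and at 120 h by 0 (0.782% of all genes).

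The earlier times (4 to 24 h) and the later times (72 and 120 h) were also given separate treatment terms in 1 limma fit. At the earlier times 3 members were higher, against 1.79% of all genes, and 1 was lower, against 0.476% of all genes. Nr1h3 differed by 0.60 (limma adjusted p = 0.00528), Abca1 by 0.40 (0.0434), Ch25h by 1.55 (0.0379) and Gpr183 by -0.65 (0.0385). At the later times 1 member was higher, against 0.863% of all genes, and 1 was lower, against 0.0802% of all genes. These were Nr1h3, by 0.59 (limma adjusted p = 0.0292), and Gpr183, by -0.86 (0.0478). Abca1, at 0.23 (95% interval 0.00 to 0.46), and Ch25h, at 0.68 (95% interval -0.17 to 1.52), did not pass there (limma adjusted p = 0.632 and 0.738). Some of these calls were lost with 1 pair left out. At the earlier times Nr1h3 lost its call without the 24 h pair (0.0556) and Gpr183 without the 4 or 24 h pair (0.102 and 0.282), while Abca1 lost it without any 1 pair and Ch25h without any but the 4 h pair. At the later times Nr1h3 lost its call without the 24, 72 or 120 h pair (up to 0.655) and Gpr183 without any but the 10 h pair (up to 0.961), while Ch25h gained one without the 4 h pair (0.0409). The estimates moved less than the calls for Nr1h3, which stayed at 0.58 to 0.62 at the earlier and 0.58 to 0.61 at the later times, and for Abca1, at 0.40 to 0.41 at the earlier times. Those of Ch25h at the earlier times ranged from 0.96 to 1.88, and those of Gpr183 from -0.76 to -0.55 at the earlier and -1.16 to -0.57 at the later times.

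A term for the change of the difference with log2 hours was then added to the model with the time block. By limma it called no member and 0 of 19938 genes in either direction (0% of all genes for a positive and 0% for a negative slope). At an unadjusted p under 0.05 it held 1 member, Ch25h, and 620 genes with a positive and 1339 with a negative slope. The Ch25h difference changed by -0.35 per doubling of hours (95% interval -0.57 to -0.13; limma adjusted p = 0.495). For Nr1h3 the estimate was 0.00 per doubling (95% interval -0.08 to 0.08), for Abca1 it was -0.04 (-0.13 to 0.04) and for Gpr183 it was -0.05 (-0.18 to 0.08). So the fall of the Ch25h difference after 4 h is a description of single arrays and did not pass the test across genes.

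**Figure D3:**
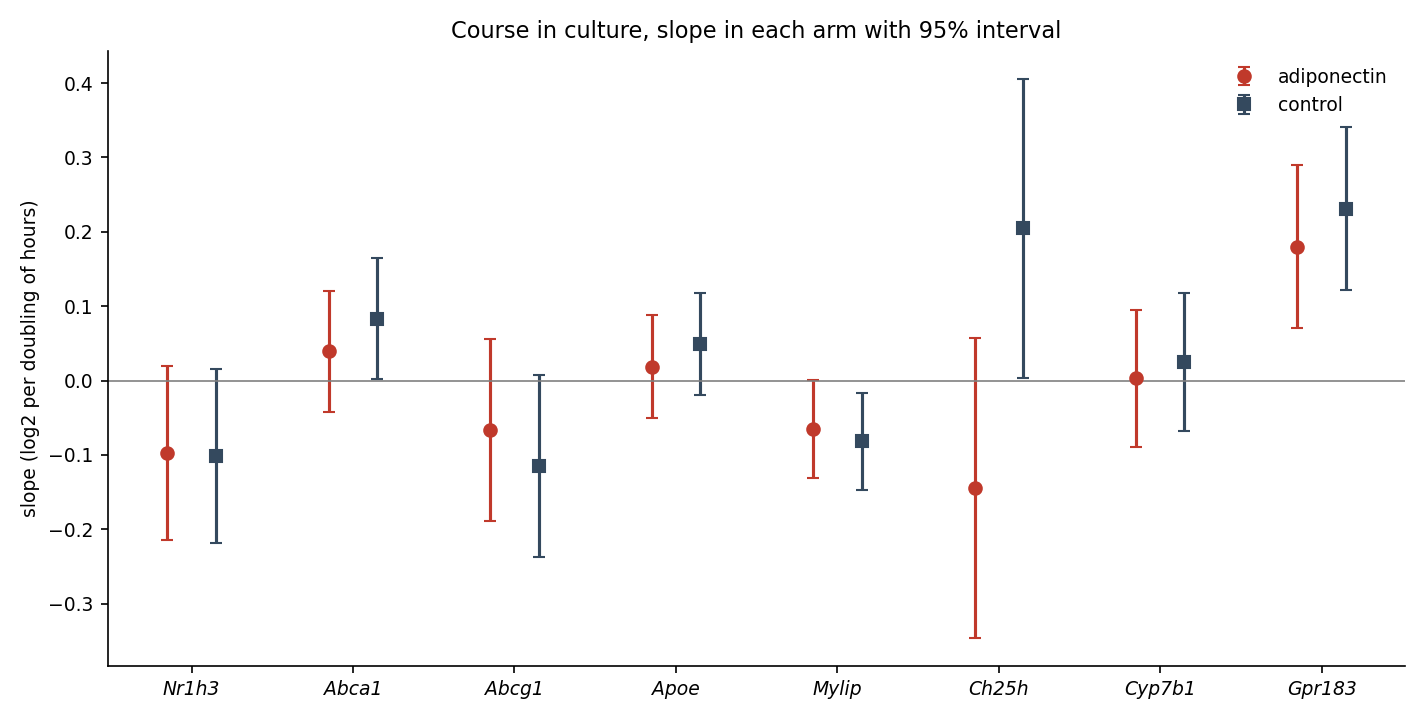
Slope of each member's log2 level per doubling of hours in culture, with 95% intervals from limma, for the adiponectin arm (red circles) and the control arm (dark squares, to the right). Gpr183 has the steepest positive slopes in both arms, and the slopes of Ch25h have opposite signs.

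Within each arm, the course over culture was read as the slope of the log2 level on log2 hours, from 1 limma fit over both arms. In adiponectin cultures 0 members passed, against 4.15% of all genes with a positive and 3.46% with a negative slope. There 1 member, Gpr183, had an unadjusted limma p under 0.05, against 20.5% of all genes in either direction. In control cultures 3 members with a positive and 1 with a negative slope had such an unadjusted p, against 26.4% of all genes. After adjustment, 1 member passed in control cultures with a positive slope, against 4.64% of all genes, and 0 with a negative slope, against 4.45%. That member was Gpr183, at 0.23 per doubling (95% interval 0.12 to 0.34; limma adjusted p = 0.0217). Its slope in adiponectin cultures was 0.18 (95% interval 0.07 to 0.29; limma adjusted p = 0.0548), which passed on linear hours (0.0054) and when genes below the median level were left out (0.042). Between 4 and 120 h its level changed by 1.14 in adiponectin cultures and by 1.04 in control cultures. The control call was lost without the 10, 72 or 120 h array pair (adjusted p = 0.0694, 0.0874 and 0.128).

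Nr1h3 had close to the same slope in each arm, -0.10 per doubling in adiponectin cultures and -0.10 in control cultures (limma adjusted p = 0.356 and 0.247). Both arms were highest at 24 h. On linear hours the adiponectin and control slopes both passed (adjusted p = 0.0479 and 0.0353). Ch25h had a slope of -0.14 in adiponectin cultures and 0.20 in control cultures (limma adjusted p = 0.443 and 0.184). Without the 4 h pair the adiponectin slope was 0.08. Its level at 120 h minus that at 4 h was -1.09 in adiponectin cultures and 0.79 in control cultures. Mylip (-0.07 in adiponectin cultures and -0.08 in control cultures) and Abcg1 (-0.07 and -0.12) also had negative estimates, and Abca1 (0.04 and 0.08) positive ones, without passing. The control slope of Mylip passed on linear hours (0.0335) and that of Abca1 without the 4 h pair (0.0483).

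The 3 members whose values spanned at least 1 on the log2 scale over the 10 arrays were set against the 2479 genes with such a span, by Pearson's correlation over the 10 arrays. All of these points share arrays, times and treatment, so the values only describe likeness. Nr1h3 was most like Ifi214 (0.99), Rnf114 (0.98) and Slfn2 (0.98). Those genes had mean differences of 2.11, 0.47 and 0.56 (limma adjusted p = 1.14e-06, 0.00439 and 0.00192). Ch25h was most like the adhesion molecule gene Icam1 (0.96), Lacc1 (0.94) and Tnip1 (0.94), of which Lacc1 passed the test over all times (mean difference 0.79, limma adjusted p = 0.0156, but 0.062 without the 10 h and 0.0944 without the 24 h pair). Gpr183 was most like Acaa2 (0.97), Gpr82 (0.96) and S100a4 (0.96), of which Gpr82 passed (mean difference -0.56, limma adjusted p = 0.0055). Between members, the strongest correlations over the 10 arrays were -0.90 for Nr1h3 with Gpr183, -0.83 for Nr1h3 with Apoe, -0.78 for Abca1 with Mylip and 0.71 for Abca1 with Ch25h. Nr1h3 and Abca1, receptor and target, correlated at 0.16.

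Other LXR target genes held no call. Of 14 measured, 0 rose and 0 fell over all times, with a median difference of -0.00 against 0.01 over all genes. Both signs were equally frequent, with 7 positive and 7 negative. The largest were Lpl, lipoprotein lipase, at -0.37 ± 0.24 (SD, n = 5 pairs; limma adjusted p = 0.0837; negative in every pair), and Mertk, a receptor for the uptake of apoptotic cells, at 0.23 ± 0.20 (0.331). Srebf1, the LXR target that drives fatty acid synthesis, was at 0.01 ± 0.07.

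Of 8 other enzymes of oxysterol and bile acid synthesis, 1 fell and 0 rose, with a median of 0.00. The one that fell was Cyp27a1, the mitochondrial sterol hydroxylase that makes another LXR ligand. Its differences were -0.90, -0.59, -0.78, -0.08 and -0.37, with a mean of -0.54 ± 0.33 (SD, n = 5 pairs; limma adjusted p = 0.0279). It was thus lower in 5 of 5 pairs, in the opposite direction to Ch25h. Its call was kept without the 72 h pair and lost without any other (limma adjusted p = 0.0515 to 0.152). Hsd3b7, which acts on hydroxylated sterols further along, was at -0.26 ± 0.11 and lower in 5 of 5 pairs without passing (0.129).

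Of 12 measured RXR partners and cofactors, 0 rose and 0 fell, with a median of 0.02. The largest were the coactivator gene Ncoa1 at 0.25 ± 0.33 (limma adjusted p = 0.505) and Rxrg at 0.20 ± 0.19 (0.421), both SD over 5 pairs. Rxra, the main RXR form of myeloid cells, was at -0.20 ± 0.21 (0.46).

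Of 16 genes of sterol sensing and transport, 2 rose and 0 fell, with a median of -0.04. Osbpl3, an oxysterol-binding protein homologue, differed by 0.98, 1.42, 0.86, 0.40 and -0.01, with a mean of 0.73 ± 0.55 (SD, n = 5 pairs; limma adjusted p = 0.0465). Stard3, which moves cholesterol from late endosomes, differed by 0.54, 0.23, 0.46, 0.35 and 0.21, with a mean of 0.36 ± 0.14 (0.0357). Osbpl3 thus had its gap at the earlier times and none at 120 h, whereas Stard3 was higher in 5 of 5 pairs. Osbpl3 lost its call without the 4, 10 or 24 h pair (limma adjusted p = 0.134 to 0.216), and Stard3 lost it without any 1 pair (0.052 to 0.154).

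The SREBP-2 target genes, which make cholesterol and are switched off by oxysterols, held no call. Of 13 measured, 0 rose and 0 fell, with a median of -0.06 and 11 negative means. The largest mean differences were Idi1 at -0.17 ± 0.25 (limma adjusted p = 0.65) and Mvk at 0.12 ± 0.14 (0.735), both SD over 5 pairs. At single times, with 1 array per arm and no test, the sign of the list varied. Of the 13 genes, 6 were positive at 4 h (median -0.04), 11 at 10 h (0.18), 1 at 24 h (-0.40), 3 at 72 h (-0.09) and 4 at 120 h (-0.04). The arrays as a whole also differed at 10 h, with a median over all named genes of 8.40 for adiponectin and 8.27 for control. At 24 h these medians were 8.45 and 8.48. The part of such array-wide offsets in the signs of the list was not tested. At 24 h they ran from -0.64 for Fdft1 to 0.02 for Mvk, and at 4 h from -0.32 for Dhcr7 to 0.41 for Fdft1. Of the lipoprotein receptors that Mylip marks, 2 were measured, and Vldlr (0.18 ± 0.28) and Lrp8 (0.22 ± 0.21) did not pass (limma adjusted p = 0.65 and 0.394).

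**Figure D4:**
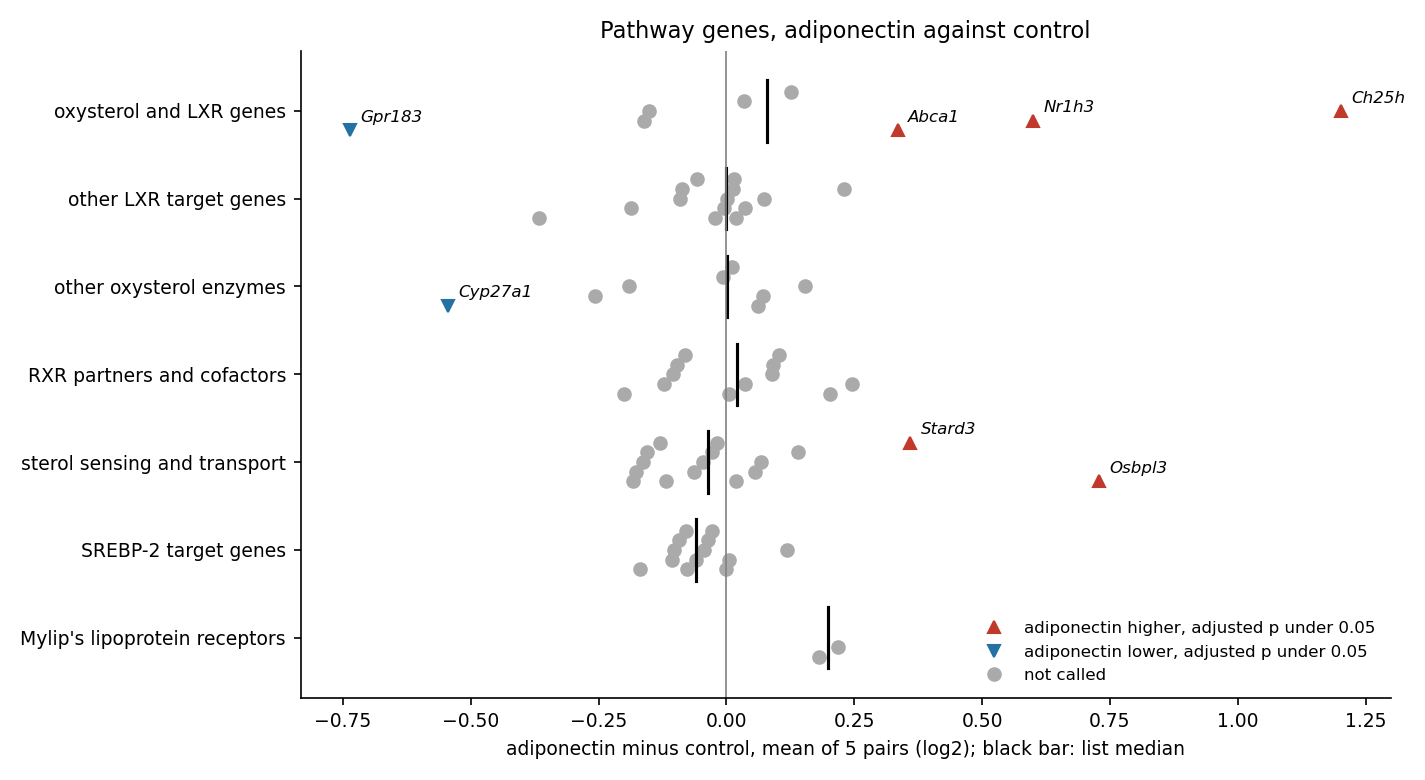
Mean difference over the 5 times for every measured gene of the axis and of 6 related lists (log2, adiponectin minus control), 1 row per list, with triangles for genes at an adjusted p under 0.05 and grey points for the rest. The black bar of each list is its median, which lies within 0.1 of 0 for all lists but the 2 receptors that Mylip marks.

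For scale, 11 of 11 measured interferon-response genes rose in the same comparison, with a median difference of 2.65, and their summed log2 level was 15.34 to 16.13 in adiponectin cultures and 13.23 to 14.00 in control cultures. The part of that response in the differences of Nr1h3, Abca1, Ch25h and Gpr183 was not tested. Among the other marker lists, 2 of 5 monocyte markers and 1 of 5 endothelial markers rose, while 3 of each list had a negative mean difference. Of 7 T and NK cell markers, 1 fell, Cd28 at -0.85 ± 0.25 (SD, n = 5 pairs; limma adjusted p = 0.000492). The T and NK list had 5 positive and 2 negative mean differences, the widest being Gzmb at 1.51 ± 1.36 (limma adjusted p = 0.0804; higher in 5 of 5 pairs). Both monocyte calls, Plac8 and Ms4a6c, were lost without the 10, 24 or 72 h pair (limma adjusted p = 0.0517 to 0.153), Ms4a6c also without the 120 h pair (0.0724), and Plac8 in a robust fit with an intensity trend (0.369). The endothelial call, Kdr, was lost without the 24 h pair (0.075). None was called among the markers of neutrophils, plasma cells, erythroid cells, megakaryocytes, stromal cells, adipocytes or mast cells.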

How the data were processed

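Each array has 1 deposited log2 value per probe set. RMA, Affymetrix Expression Console and Partek were used, per the submitters' processing notes, with no version, step order or genome build given in the sources used here. RMA equalises array distributions, so a shift shared by most genes would be removed at least in part. In the gene values used, array medians still ran from 8.27 to 8.48.

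Of 35556 probe sets, 21789 had 1 gene symbol in the platform annotation, 1621 several and 12146 none. The probe set with the highest mean stood for each of the 999 genes with more than 1. This left 19938 genes.

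Models were fitted to all genes with limma 3.58.1 in R 4.3.3 (two-sided, Benjamini-Hochberg over all genes). Adiponectin was tested beside time as a 5-level block, which leaves 4 residual degrees of freedom and pairs the 2 cultures of each time. The labels give the time and arm of each culture, and the pairing was made from the time. Separate early and late terms, and the change with log2 hours, left 3 degrees of freedom each. Slopes within arms came from 1 fit without the block (6 degrees of freedom). The fits were tested on simulated data.

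The members and gene lists were chosen with earlier results of these data known. From each list the genes past the threshold are named, or else the 2 with the largest mean difference, and genes most like a member are the 3 with the highest correlation. Rxra, Hsd3b7, Srebf1, Mrc1, Adgre1, Ccr7, Gzmb and the genes given at single times were chosen after their values were seen. Alternatives were other normalizations, filters, models and summaries, and each pair left out.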

Additional observations from a re-analysis of the deposited data

Results flagged for a closer look

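The 4 h difference of Ch25h stood apart from its other times. It was 2.74 on the log2 scale, the next highest was 1.02 at 10 h, and the gap was 0.764 of the whole range of the 5 differences, above the critical value of 0.71 of Dixon's test. Of the 24 groups of 5 values examined, 1 was picked out, and chance picks out about 1 in 20 such groups.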

How the results depend on the processing

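Over all times 4 members were called. The count was 2 after repeated quantile normalization, 1 in an ordinary test without moderation, 0 without the replicate block (time left out of the model), 2 when log2 hours replaced the block, and 2 to 3 with 1 pair left out. At 4 to 24 h, 4 were called, against 0 in the ordinary test, 0 with log2 hours and 0 to 2 with 1 pair left out. At 72 and 120 h, 2 were called, against 0 in the ordinary test, 0 with log2 hours and 0 to 2 with 1 pair left out. In adiponectin cultures 0 slopes were called, against 1 among genes above the median level and 2 on linear hours. In control cultures 1 was called, against 0 in the ordinary test, 3 on linear hours and 0 to 2 with 1 pair left out.

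No called value changed sign under any alternative run. Among values that were not called, these did with 1 pair left out: Abcg1 over all times (-0.13 to 0.10), at 4 to 24 h (-0.24 to 0.23) and at 72 and 120 h (-0.099 to 0.062), and Cyp7b1 at 72 and 120 h (-0.15 to 0.35). Changes of the difference per doubling then ranged from -0.00065 to 0.0081 for Nr1h3, -0.014 to 0.12 for Abcg1, -0.071 to 0.010 for Apoe, -0.0025 to 0.086 for Mylip, -0.061 to 0.047 for Cyp7b1 and -0.14 to 0.00087 for Gpr183. Slopes in adiponectin cultures ranged from -0.23 to 0.078 for Ch25h, -0.037 to 0.086 for Cyp7b1 and -0.0019 to 0.040 for Apoe. After repeated quantile normalization, Apoe at 72 and 120 h was 0.057, the changes per doubling were -0.016 for Nr1h3, 0.032 for Apoe, -0.0037 for Mylip and 0.025 for Cyp7b1, and the control slope of Cyp7b1 was -0.0081. The late minus the early effect was -0.0089 for Nr1h3 and -0.088 for Abcg1, and the change per linear hour was -0.00022 for Abcg1. The adiponectin slope of Cyp7b1 was -0.0032 with median centring and -0.0011 per linear hour. The cause of these changes was not tested. A late term with 1 of its pairs left out rests on a lone pair assumed to vary like the others. No signal over background was at hand, so what dim probe sets could show is unknown.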
